A study of Mus musculus with 4 samples.

Results

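The respiratory chain genes were followed in cells sorted from mouse ovary at 2 ages. They were the genes whose symbols named a mitochondrially encoded subunit (mt-Nd, mt-Co, mt-Atp or mt-Cytb) or a nuclear encoded subunit of complex I (Ndufa, Ndufb, Ndufc, Ndufs, Ndufv), complex III (Uqcr), complex IV (Cox4 to Cox8 with a letter a to c) or ATP synthase (Atp5). This gave 91 of the 31053 genes in the count matrices, 13 mitochondrially encoded and 78 nuclear. Complex I held 7 mitochondrially encoded and 35 nuclear members, complex III 1 and 8, complex IV 3 and 18 and ATP synthase 2 and 17. Ndufa4 and Ndufa4l2 are counted here with complex IV. Of the 91, Cox7b2, Cox8c and the gene ENSMUSG00000116933, a second entry named Atp5o, had no count in any kept cell. Cox8b had 3.

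The study profiled CD45-positive, CD11b-positive cells from the ovaries of virgin wild-type C57BL/6J mice by droplet single-cell RNA-seq, with 1 library of young and 1 of old animals, labelled 3 and 15 months. Animals were 2 to 3 months old at harvest in the young library and 14 to 17 in the old one, per the protocol. Each library held 3 pools of mice marked with hashtag antibodies, described as 2 mice each. The protocol counts 6 young and 5 old mice, with 1 old pool from a single mouse. No group carried a transgene or a drug treatment in the labels used here. Since each age was 1 library, age and library cannot be told apart in any comparison of the 3 young with the 3 old pools.

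The respiratory chain passes electrons from NADH through complex I, coenzyme Q, complex III and cytochrome c to complex IV, and the proton gradient made on the way drives ATP synthase (complex V). Complex II also feeds electrons in but has no mitochondrially encoded subunit. The mitochondrial genome is transcribed as long polycistronic RNAs that are cut at tRNAs, and its messages encode core subunits of complexes I, III, IV and V. Nuclear genes encode the other subunits, which are imported and joined to the core. Macrophages are known to shift between glycolysis and respiration with their activation state, and mature neutrophils are known for few mitochondria and reliance on glycolysis.

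The ends of the mitochondrial reading frames matter here because the assay counts 3′ ends of polyadenylated RNA. In 10 of the 13 annotated reading frames (GENCODE M21, GRCm38) the last codon was a complete stop. mt-Co3, mt-Nd4 and mt-Cytb ended in a single T, which the poly(A) tail completes to a stop codon in the RNA. The last 30 bases of mt-Co3, the member that later passed the age test, are shown with those of the other 2 genes of this kind and of mt-Nd1, which has a whole stop codon. All 4 lie on the plus strand, and the capitals mark the stop or its first base. The coordinates given are those of the whole gene, of which only the last 30 bases are printed.
mt-Co3, chrM:8607-9390: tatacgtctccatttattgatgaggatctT
mt-Nd4, chrM:10167-11544: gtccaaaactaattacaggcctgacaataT
mt-Cytb, chrM:14145-15288: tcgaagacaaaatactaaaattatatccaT
mt-Nd1, chrM:2751-3707: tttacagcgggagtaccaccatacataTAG
In 3 pairs of members the reading frames overlap, so counts of the pair may be split between the genes and are uncertain. mt-Atp8 and mt-Atp6 share 43 bases and mt-Nd4l and mt-Nd4 share 7, each pair on 1 RNA. mt-Nd6 and mt-Nd5 share 14 bases on opposite strands, and how strand was used in counting is not given in the sources used here. mt-Atp6 and mt-Co3 also share 1 base. The capitals mark the shared bases, and the mt-Nd6 run is written along its own minus strand.
mt-Atp8 and mt-Atp6, chrM:7910-7969: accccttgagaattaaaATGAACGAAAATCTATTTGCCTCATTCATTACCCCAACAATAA
mt-Nd4l and mt-Nd4, chrM:10144-10173: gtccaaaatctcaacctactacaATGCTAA
mt-Nd6 and mt-Nd5, chrM:13552-13581: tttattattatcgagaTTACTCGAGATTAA

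The 2 libraries held 3135 and 4939 barcodes, of which 1837 and 3833 were kept as hashtag singlets with at least 500 genes, at least 1000 gene UMIs and at most 10% mt- UMIs (a UMI marks 1 captured RNA molecule). Kept cells had medians of 7232 and 7539 UMIs, and 2 kept barcodes occurred in both libraries. Classes were clusters named by marker genes and written "X-like", and the members and other mt- genes took no part in the clustering. The sort markers were weak in some classes: Ptprc (CD45) was found in 39.1% of stroma-like and 7.14% of endothelial-like cells, against 89.4% of macrophage-like cells. The stroma-like class also held theca or luteal and macrophage marker RNA, and the NK cell-like class held T cell marker RNA (977 to 2567 CPM over all pools). Haemoglobin RNA differed between the libraries: in macrophage-like cells the 6 erythroid markers summed to 522 to 794 CPM in the 3-month pools and 20.3 to 25.5 CPM in the 15-month pools, with 1 of the 6 at 0.

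Cell classes differed widely in respiratory chain RNA, and most in the mitochondrially encoded part. Over the 6 pools, the 13 mitochondrially encoded genes made up 2.70 ± 0.622% of gene UMIs in macrophage-like cells (mean ± SD, n = 6 pools), 3.99 ± 0.387% in stroma-like cells and 0.602 ± 0.139% in neutrophil-like cells. The nuclear members made up 2.00 ± 0.155%, 2.43 ± 0.120% and 0.977 ± 0.0988% in the same classes. Within each of the 6 pools, stroma-like cells were highest and neutrophil-like cells lowest of the 7 classes with at least 10 cells in every pool, for both sums. Neutrophil-like cells had fewer UMIs than the rest, with a median of 2155 per cell against 10554.5 in the largest macrophage-like cluster, and the part of depth in these shares was not tested.

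The order between the extremes differed for the 2 kinds of gene. For the mitochondrially encoded sum, macrophage-like cells were above cDC2-like (type 2 dendritic), classical monocyte-like and non-classical monocyte-like cells in 6 of 6 pools, and above NK cell-like cells in 5 of 6. NK cell-like cells had 2.38 ± 0.413%, cDC2-like cells 1.94 ± 0.292%, classical monocyte-like cells 2.01 ± 0.354% and non-classical monocyte-like cells 1.84 ± 0.303%. cDC2-like and classical monocyte-like cells were each the higher in 3 pools, so this pair had no stable order. For the nuclear sum, macrophage-like, NK cell-like and classical monocyte-like cells had no order that held in all pools, each pair splitting 3 to 3. NK cell-like cells were above both of the others in all 3 young pools and below both in all 3 old pools, and age and library cannot be told apart here. Non-classical monocyte-like cells (1.69 ± 0.173%) were below macrophage-like, NK cell-like, cDC2-like and classical monocyte-like cells in 6 of 6 pools. The plot of shares by class shows both sums for each pool. Because classes were drawn from the same cells, these levels are a description without a test.

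**Figure D1:**
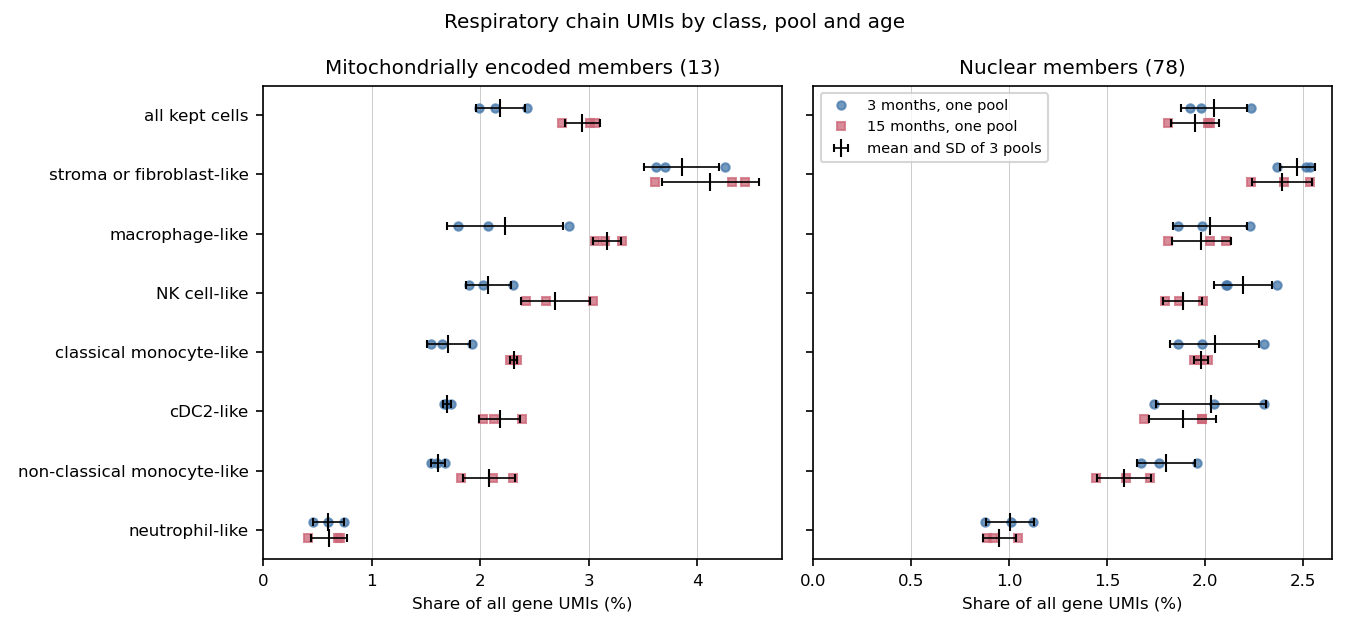
Share of gene UMIs in percent (horizontal axis) taken by the 13 mitochondrially encoded (left) and 78 nuclear members (right) in all kept cells and in 7 cell classes (rows). Circles are 3-month and squares 15-month pools, and bars give the mean and SD of 3 pools. Stroma-like cells are highest and neutrophil-like cells lowest of the 7 tested classes in both sums, and macrophage-like pools run from 1.79 to 3.31% for the mitochondrially encoded sum.

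B cell-like cells stood apart by the ratio between the kinds of gene. Only the 15-month pools held enough of them, 73, 93 and 62 cells against 2, 4 and 8 in the 3-month pools. In the 15-month pools their mitochondrially encoded share was 4.73, 4.58 and 4.83%, and their nuclear share was 1.35, 1.42 and 1.59%. The log2 ratio of the sums was 1.70 ± 0.10 (SD, n = 3), against 0.68 ± 0.11 in macrophage-like and -0.69 ± 0.43 in neutrophil-like cells of the same pools. Read by complex, the median member in B cell-like over macrophage-like cells was higher for mitochondrially encoded genes (log2 0.65 in complex I, 0.71 in complex III, 0.64 in complex IV, 0.88 in ATP synthase). It was lower for nuclear genes, at -0.58, -0.77, -0.55 and -0.50 in the same order. The 2 kinds of subunit of each complex thus had medians on opposite sides of 0 in this class. These medians pooled all 242 B cell-like and all 1944 macrophage-like cells of both ages. The ages were therefore not matched in them, unlike in the log2 ratios of the sums above. Cytosolic ribosomal genes took 42.8 and 37.0% of UMIs in B cell-like cells of 3-month pools 1 and 2 (2 and 4 cells). In all kept cells of those pools they took 20.4 and 20.3%. A large ribosomal share lowers the CPM of all other genes, and its part in these medians was not tested. The 15-month pools held most of the B cell-like cells behind these medians, and their ribosomal share is not given here.

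Single mitochondrially encoded genes shared their highest and lowest class, and the nuclear ones did not all do so. Among members with a mean of at least 50 CPM (UMIs of a gene scaled to the same library total, 1 UMI a molecule, with no scaling by length), all 12 mitochondrially encoded genes were lowest in neutrophil-like and highest in stroma-like cells. Their log2 range over the 7 classes had a median of 2.77 (2.55 to 3.27). Of the 68 nuclear members at this level, 63 were lowest in neutrophil-like and 41 highest in stroma-like cells, and the log2 range had a median of 1.69 but ran from 0.19 to 4.98.

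Of the 10 nuclear genes with the widest range 8 were complex I subunits, which made up 34 of the 68 nuclear members at this level. Ndufa5, a subunit of the complex I arm that holds the flavin and iron-sulfur centres, averaged 196 CPM in stroma or fibroblast-like and 6.21 CPM in neutrophil-like cells. Ndufc2, a membrane arm subunit, averaged 325 CPM in stroma or fibroblast-like and 18.2 CPM in neutrophil-like cells, and its partner Ndufc1 246 CPM in stroma or fibroblast-like and 20.3 CPM in neutrophil-like cells. Ndufa11, Ndufv2, Ndufa12, Ndufs3 and Ndufa10 of complex I followed with log2 ranges between 2.94 and 3.25. Outside complex I, 2 genes for the c subunit of the ATP synthase ring were among the 10 widest, Atp5g2 and Atp5g3, both with a range of 3.30. The narrowest were Cox6a1 of complex IV, with 341 CPM in stroma or fibroblast-like and 299 CPM in neutrophil-like cells, Ndufa3 of complex I, with 194 CPM in NK cell-like and 165 CPM in non-classical monocyte-like cells, and Atp5l, subunit g of ATP synthase, with 738 CPM in classical monocyte-like and 568 CPM in stroma or fibroblast-like cells. Cox6a1, Ndufa3 and Atp5l were picked out after their values were seen.

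Neutrophil-like against macrophage-like cells showed the same contrast by complex. The median mitochondrially encoded member had a log2 ratio of -2.29 in complex I, -2.43 in complex III (mt-Cytb alone), -2.18 in complex IV and -2.27 in ATP synthase. The nuclear medians were -1.23, -1.12, -1.19 and -1.43. Within complex I the nuclear log2 ratios ran from Ndufa5 (-4.15) to Ndufb9 (0.13), and within complex III from Uqcrb (-2.63) to Uqcrh (-0.82), the hinge protein gene. In complex IV they ran from Ndufa4 (-1.80) to Cox8a (0.02), and in ATP synthase from Atp5g2 (-3.12) to Atp5l (-0.07). Cox8a, a small membrane subunit, was at 984 ± 88.8 CPM in neutrophil-like and 967 ± 69.7 CPM in macrophage-like cells (SD, n = 6), a difference within the spread of the pools. Erythroid marker RNA was also higher in CPM in neutrophil-like cells, at 1415 to 1881 CPM in the 3-month pools and 74.9 to 91.8 CPM in the 15-month pools, with 2 of the 6 markers at 0, and its part in the contrast was not tested.

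**Figure D2:**
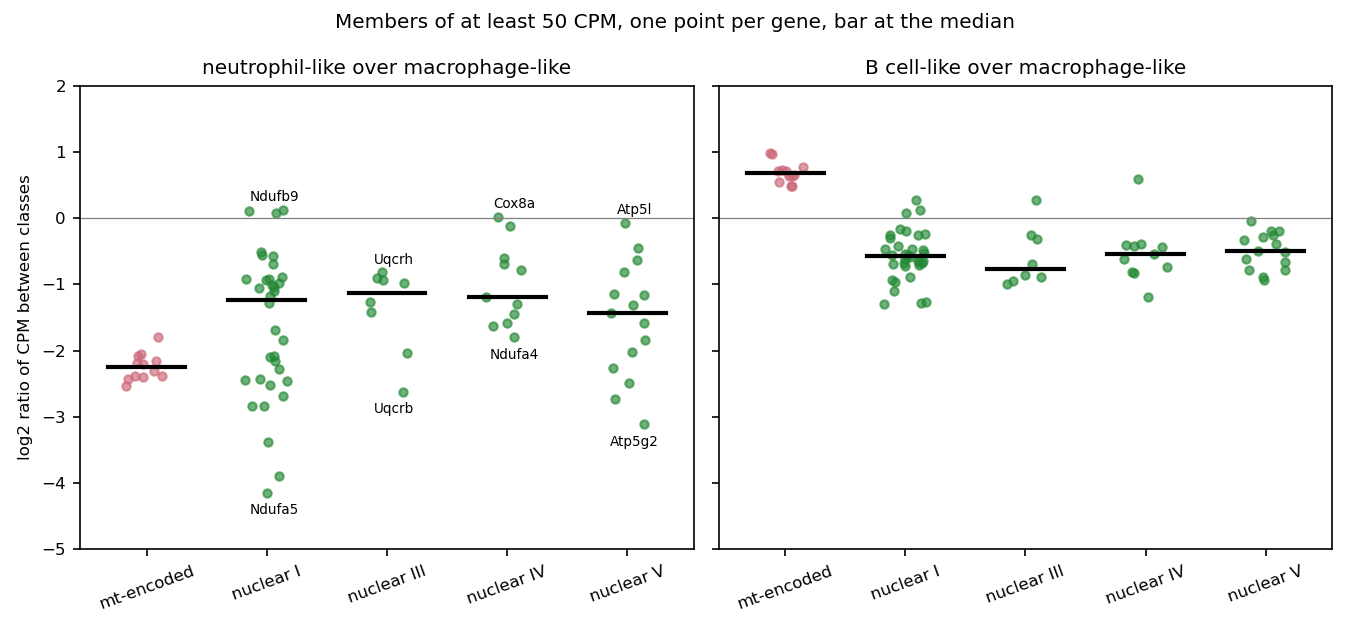
Log2 ratio of CPM (vertical axis) in neutrophil-like over macrophage-like (left) and B cell-like over macrophage-like cells (right), with 1 point per member of at least 50 CPM, grouped by encoding genome and complex, and bars at the medians. Mitochondrially encoded members lie below 0 on the left and above 0 on the right, while nuclear members of complex I in neutrophil-like cells spread from -4.15 to 0.13. Ratios on the left are of pool means. Those on the right are of all cells of a class pooled over both ages, which were not matched.

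Some subunits come in versions known to be restricted to certain tissues, and these were scarce in the ovary cells. Ndufa4l2, a hypoxia-linked relative of Ndufa4, had 373 UMIs in all, of which 339 were in stroma-like cells (54.8 ± 41.8 CPM, SD, n = 6, with pools from 3.12 to 111.6 CPM). In NK cell-like, cDC2-like and neutrophil-like cells it had 0 UMIs, which allows up to 1.68, 0.550 and 2.25 CPM. Cox6b2, known from testis, was at 22.0 ± 7.09 CPM in stroma-like and 21.6 ± 6.96 CPM in cDC2-like cells, and its partner Cox6b1 was at 509.7 ± 61.0 CPM in stroma-like cells. Cox7a1 and Cox6a2, known from heart and skeletal muscle, reached 12.5 ± 7.55 CPM in stroma-like and 4.29 ± 2.19 CPM in macrophage-like cells. The common partner Cox7a2 was at 405 ± 47.8 CPM in macrophage-like cells, and Cox6a1 at 324 ± 40.3 CPM. All 3 UMIs of Cox8b were in stroma-like cells.

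The 3 genes that encode the same mature c subunit of ATP synthase differed in level across classes. In macrophage-like cells Atp5g2 was at 565 ± 58.9 CPM, Atp5g1 at 436 ± 71.4 CPM and Atp5g3 at 229.6 ± 26.5 CPM. In neutrophil-like cells they were at 65.2 ± 39.1 CPM, 65.5 ± 27.6 CPM and 41.1 ± 11.6 CPM, with overlapping spreads. Non-classical monocyte-like cells held 193 ± 32.2 CPM of Atp5g1 and 174 ± 28.1 CPM of Atp5g3. Cox7a2l, counted here with complex IV, was at 101 ± 36.8 CPM in neutrophil-like and 276 ± 69.8 CPM in macrophage-like cells. It was at 459 ± 4.89 CPM in the 3 pools of B cell-like cells (SD, n = 3). The function of the Cox7a2l protein in this mouse strain was not tested.

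Promoters of the nuclear members were read for the core motifs of 3 factors known to act on respiratory genes. Windows from 250 bases before to 50 after the start (RefSeq, GRCm38.p6) were found for 63 of the 77 nuclear symbols. The NRF1 core CGCATGCG, which is its own reverse complement, stood in the windows of 9 of these 63 genes (14.3%), and in 2.07% of all 27025 genes with a window. The YY1 core AAGATGGC, on either strand, stood in 9 (14.3%, against 3.19%) and the ETS core CCGGAAGT, on either strand, in 5 (7.94%, against 4.31%). The 9 NRF1 genes were Atp5g2, Atp5j, Atp5k, Atp5l, Cox6a1, Ndufa11, Ndufa8, Uqcr11 and Uqcrc1. They included genes at both ends of the range over classes, so 2 of the narrowest and 2 of the widest are shown, along the gene's strand with the core in capitals.
Cox6a1, chr5:115349101-115349130, minus strand: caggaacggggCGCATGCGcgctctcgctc
Atp5l, chr9:44920963-44920992, minus strand: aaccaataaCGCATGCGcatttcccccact
Atp5g2, chr15:102671070-102671099, minus strand: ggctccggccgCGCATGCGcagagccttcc
Ndufa11, chr17:56717692-56717721, plus strand: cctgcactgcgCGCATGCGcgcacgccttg
A match describes these letters and is not evidence of binding.

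At 15 months the mitochondrially encoded genes took a larger share of the RNA without overlap of the ages in 5 of the 7 tested classes, while the nuclear genes did so in none. In macrophage-like cells the mitochondrially encoded share was 1.79, 2.07 and 2.82% in the 3-month pools and 3.15, 3.06 and 3.31% in the 15-month pools, and the 2 ages did not overlap (2.23 ± 0.532% and 3.17 ± 0.129%, SD, n = 3 pools). The nuclear share was 1.99, 2.23 and 1.86% in the 3-month pools and 1.81, 2.03 and 2.11% in the 15-month pools, with overlap. The log2 ratio of the 2 sums was -0.15, -0.11 and 0.60 in the 3-month pools and 0.80, 0.59 and 0.65 in the 15-month pools, and young pool 3, at 0.60, reached the old pools. The difference in means was 0.56, and it was 0.22 with another rule for hashtag calls, 0.24 at a finer clustering and 0.13 when members were allowed among the clustering genes. As a sum over members chosen with earlier results known, it has no test.

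NK cell-like cells differed between the ages in both sums. Their mitochondrially encoded share was 1.90, 2.03 and 2.30% in the 3-month pools and 2.61, 2.43 and 3.04% in the 15-month pools, higher at 15 months without overlap. Their nuclear share was 2.11, 2.37 and 2.11% in the 3-month pools and 1.80, 1.99 and 1.87% in the 15-month pools, lower at 15 months without overlap. The log2 ratio differed by 0.59, and by 0.35 when cells with up to 20% mt- UMIs were allowed. Of the T cell markers 5 of 6 had a log2 age ratio above 0 in these cells (median 0.84), and their sum was 977 to 1674 CPM in the 3-month pools and 1077 to 2567 CPM in the 15-month pools. The 3 tested macrophage markers were all above 0 (median 0.93). No marker of either list passed the test, and their part in the age difference was not tested. Classical monocyte-like cells had mitochondrially encoded shares of 1.54, 1.64 and 1.93% in the 3-month pools and 2.27, 2.31 and 2.34% in the 15-month pools. cDC2-like cells had 1.66, 1.73 and 1.69% in the 3-month pools and 2.39, 2.02 and 2.13% in the 15-month pools, and non-classical monocyte-like cells 1.60, 1.55 and 1.68% in the 3-month pools and 2.12, 1.82 and 2.30% in the 15-month pools. In these 3 classes the ages did not overlap for the mitochondrially encoded share or for the log2 ratio, which differed by 0.49, 0.46 and 0.55. The nuclear shares overlapped in all 3.

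Neutrophil-like and stroma-like cells showed no such separation. In neutrophil-like cells the mitochondrially encoded share was 0.456, 0.742 and 0.601% in the 3-month pools and 0.412, 0.711 and 0.690% in the 15-month pools, and in stroma-like cells it was 4.26, 3.71 and 3.62% in the 3-month pools and 4.44, 4.32 and 3.61% in the 15-month pools. The ages overlapped in both, and the log2 ratio differed by 0.07 and 0.14. Marker RNA of other ovarian cells in the stroma-like class differed between the ages. Epithelium markers summed to 16.9 to 275 CPM in the 3-month pools and 462 to 1120 CPM in the 15-month pools, without overlap. Granulosa markers summed to 644 to 1812 CPM and then 197 to 711 CPM, and theca or luteal markers to 2123 to 3461 CPM and then 486 to 2497 CPM, both with overlap. Macrophage markers summed to 1487 to 3563 CPM and then 2748 to 5125 CPM in this class, also with overlap. All 8 macrophage markers had a log2 age ratio above 0 (median 0.72), and none passed the test. The part of these other cells in the stroma-like values was not tested. Whether these classes differ from macrophage-like cells was tested gene by gene, and no member passed that test, as reported last. In bulk sums of a class, more RNA per mitochondrion and more mitochondria per cell cannot be told apart. Singlets over 10% mt- UMIs were left out, 79 young and 324 old, a count that includes singlets also failing the limits on genes or UMIs. Among singlets passing those limits, 1.55% of 1866 young and 3.48% of 3971 old ones exceeded 10%. The shares are thus those of cells under that limit.

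The macrophage-like class was made of clusters with different levels, present in different proportions in the pools. Cluster 0, led by Ccl12, Vcam1 and the complement C1q genes, had a mitochondrially encoded share of 2.39, 2.72 and 2.84% in the 3-month pools and 3.26, 3.12 and 3.10% in the 15-month pools. Cluster 6, led by Spp1, Arg1 and Gpnmb, had 1.40, 1.70 and 2.12% in the 3-month pools and 2.90, 2.62 and 2.65% in the 15-month pools. Cluster 7, led by Cbr2, Fcrls and Pf4, had 3.19, 2.85 and 3.22% in the 3-month pools and 4.14, 3.74 and 3.31% in the 15-month pools. In each of the 3 clusters the old pools lay above the young ones. The log2 ratio to nuclear genes separated the ages only in cluster 6, from -0.41 ± 0.29 to 0.33 ± 0.20 (SD, n = 3), and overlapped in cluster 0 (0.64 ± 0.08 and 0.77 ± 0.21) and cluster 7 (0.53 ± 0.14 and 0.76 ± 0.53). Cluster 6, the lowest of the 3, held 90 of 171, 105 of 205 and 22 of 304 macrophage-like cells of the young pools, and 64 of 209, 145 of 713 and 23 of 342 of the old ones. The young pool with the highest share in the whole class was the one with 22 such cells. Cluster 11, led by Lipg and Fcrl5, was nearly absent from the young pools (0, 1 and 1 cells) and held 20, 2 and 132 cells of the old ones. In old pool 3, where it made up 132 of the 342 macrophage-like cells, its mitochondrially encoded share was 4.22%. Without clusters 11 and 15, left out after seeing the data, the class had shares of 3.16, 3.07 and 3.07% in the old pools, and the age difference in the log2 ratio was 0.52 in place of 0.56. Depth within the clusters also differed by age. Median UMIs per cell in cluster 6 averaged 10185.8 in the 3-month pools and 14113.5 in the 15-month pools, without overlap. They averaged 7745.5 and 10803.3 in cluster 0, and 2738 and 6860.5 in cluster 7, both with overlap. The part of depth in these age differences was not tested.

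Single mitochondrially encoded genes were tested by age with edgeR's quasi-likelihood test on counts summed per pool and class, with Benjamini-Hochberg adjustment over all genes tested in the class. Only mt-Co3, of the 91 members, passed an adjusted p of 0.05 in any class. It encodes a core subunit of complex IV and passed in non-classical monocyte-like cells alone. Its levels (CPM scaled by TMM, as are all levels by age) were 2688, 2348 and 2953 CPM in the 3-month pools and 3815, 3461 and 4618 CPM in the 15-month pools. All old pools lay above all young ones (log2 ratio 0.56 ± 0.11 (SE), adjusted p = 0.0155). In that class 0.705% of all genes tested passed in either direction and 0.254% were higher. The call was lost without young pool 1 (log2 ratio 0.56, adjusted p 0.0960), without young pool 2 (0.47, adjusted p 0.0806) and without old pool 3 (0.45, adjusted p 0.225). Of the 12 mitochondrially encoded genes tested in this class, 12 had a log2 ratio above 0, as did 50.2% of all genes, and the median was 0.37. Erythroid marker RNA in these cells was 652 to 757 CPM in the 3-month pools and 23.9 to 51.1 CPM in the 15-month pools, with 2 of the 6 markers at 0. In the same class 1 of 2 tested nuclear retained RNAs was called higher at 15 months, and 3 of 15 immediate early and dissociation genes were called lower. The part of these RNAs in the call of mt-Co3 was not tested.

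In macrophage-like cells no member passed, and 0.0778% of all genes did. At an unadjusted p under 0.05 there were 7 of 13 mitochondrially encoded genes, all higher, and 1 of 73 nuclear genes, against 13.4% of all genes in either direction. Of the 13, 7 were higher at 15 months without overlap of the ages, against 10.1% of all genes, and 12 had a log2 ratio above 0 (50.9% of all genes), with a median of 0.47 against 0.01 for all genes. DESeq2 also called no member in this class.

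Among the complex I genes, mt-Nd1 was at 1074, 1332 and 1692 CPM in the 3-month pools and 2186, 2022 and 2129.9 CPM in the 15-month pools (log2 ratio 0.63, SE 0.17, adjusted p 0.319). mt-Nd6, the only mitochondrially encoded member on the minus strand, was at 15.3, 17.7 and 22.4 CPM in the 3-month pools and 33.5, 33.0 and 41.2 CPM in the 15-month pools (log2 ratio 0.93 ± 0.19 (SE), adjusted p 0.301). Both genes had all old pools above all young ones. mt-Nd3 was at 186, 238 and 291 CPM in the 3-month pools and 385, 368 and 379 CPM in the 15-month pools (log2 ratio 0.66, SE 0.18, adjusted p 0.319), again with no overlap. mt-Nd2 had a log2 ratio of 0.50 ± 0.18 (SE), mt-Nd5 0.36 ± 0.18 (SE) and mt-Nd4 0.31 ± 0.19 (SE). The exception was mt-Nd4l, whose frame overlaps that of mt-Nd4: it was at 139, 183 and 286 CPM in the 3-month pools and 202, 173 and 192 CPM in the 15-month pools (log2 ratio -0.11 ± 0.25 (SE), adjusted p 0.885). The ages overlapped, and young pool 3 was the highest of all 6. In stroma-like cells mt-Nd4l was at 399, 394 and 319 CPM in the 3-month pools and 284, 271 and 197 CPM in the 15-month pools. Every old pool lay below every young one there (log2 ratio -0.56 ± 0.20 (SE), adjusted p = 0.333).

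For complex III, mt-Cytb, the catalytic cytochrome b gene, had a log2 ratio of 0.27 ± 0.18 (SE) in macrophage-like cells (adjusted p 0.535). For complex IV, mt-Co3 was at 3227, 3326 and 4758 CPM in the 3-month pools and 5882, 5605 and 6171 CPM in the 15-month pools (log2 ratio 0.64, SE 0.17, adjusted p 0.319). mt-Co1 and mt-Co2, the other core genes of that complex, had 0.33 ± 0.16 (SE) and 0.32 ± 0.16 (SE). For ATP synthase, mt-Atp8 was at 33.7, 39.1 and 68.7 CPM in the 3-month pools and 84.3, 77.8 and 88.4 CPM in the 15-month pools (log2 ratio 0.79, SE 0.25, adjusted p 0.319), and mt-Atp6 had 0.47 ± 0.17 (SE). mt-Co3 was also tested in the other classes, with log2 ratios of 0.67 in NK cell-like (adjusted p 0.125), 0.63 in classical monocyte-like, 0.49 in cDC2-like, 0.19 in neutrophil-like and 0.24 in stroma-like cells. None of these 5 passed. In cDC2-like cells 6 of 13 mitochondrially encoded genes, and in classical monocyte-like cells 6 of 12, were higher at 15 months without overlap, against 8.83% and 8.07% of all genes, and 7 of 12 were in non-classical monocyte-like cells, against 10.3%. At an unadjusted p under 0.05 there were 5 mitochondrially encoded and 2 nuclear members in cDC2-like cells (all genes 10.1%), 5 and 0 in classical monocyte-like (7.43%), 10 and 6 in non-classical monocyte-like (12.3%), 2 and 1 in stroma-like (11.2%) and 0 and 0 in neutrophil-like cells (3.73%).

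**Figure D3:**
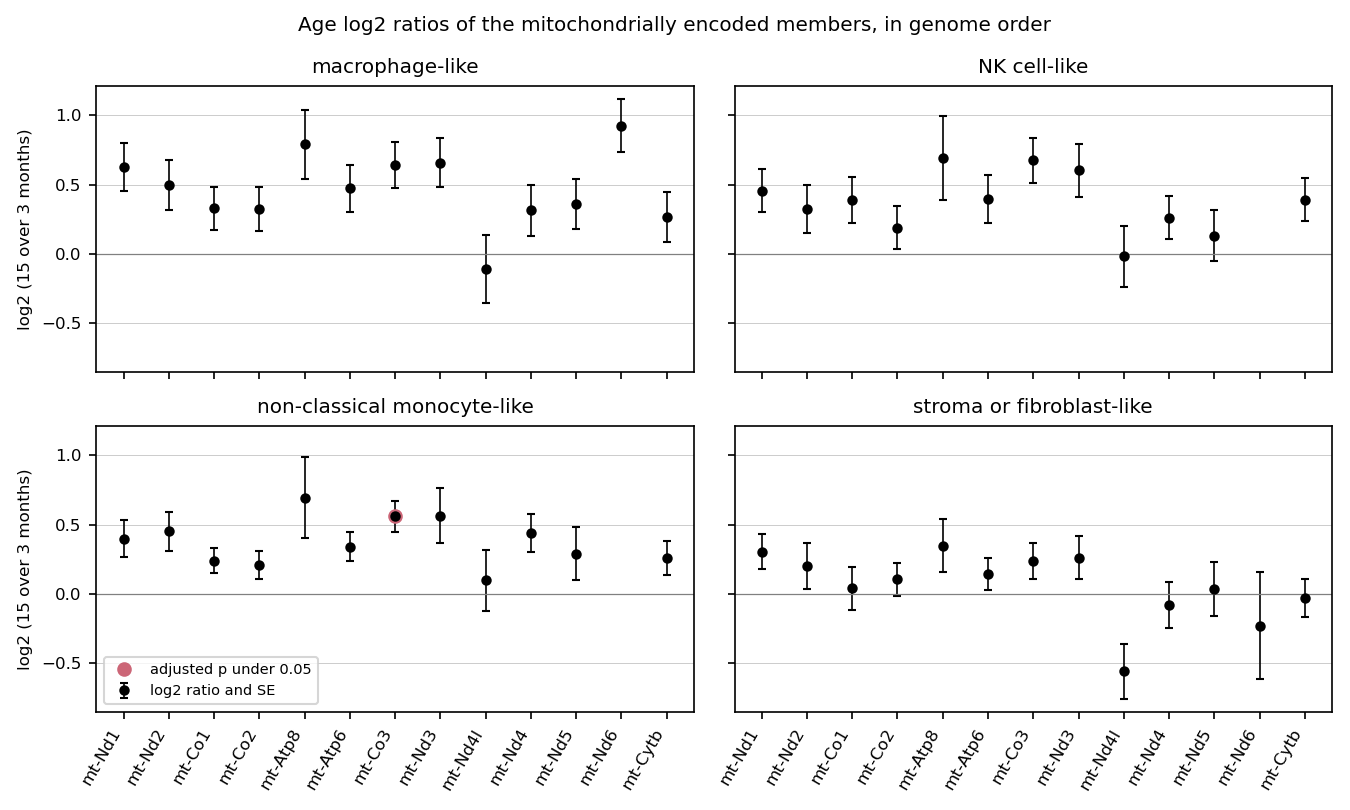
Age log2 ratio of 15 over 3 months (points, edgeR) and its SE (bars) for each mitochondrially encoded gene in genome order, in macrophage-like, NK cell-like, non-classical monocyte-like and stroma-like cells; a coloured ring marks the adjusted p under 0.05. mt-Co3 in non-classical monocyte-like cells is at 0.56, and mt-Nd4l is the lowest gene of each panel, at -0.56 in stroma-like cells.

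All kept cells together, which mix classes in proportions that differ between pools, had the same direction. Of the 13 mitochondrially encoded genes, 11 were higher at 15 months without overlap, against 12.6% of all genes, 8 had an unadjusted p under 0.05 (either direction 16.7% of all genes), and none passed after adjustment, as 0.0589% of all genes did. Their median log2 ratio was 0.37. DESeq2 called 5 of them here: mt-Atp8, mt-Co3, mt-Nd1, mt-Nd2 and mt-Nd3. In NK cell-like cells 6 of 12 mitochondrially encoded genes were higher without overlap, against 8.89% of all genes, with a median log2 ratio of 0.39. DESeq2 called mt-Co3 there, while edgeR called no member and 0.379% of all genes. With the pool number as a replicate block edgeR called 5 members there, mt-Atp6, mt-Co3, mt-Nd1 and mt-Nd3 higher and Ndufa4 lower. Same-numbered pools of this class correlated at 0.19, 0.14 and 0.20, and the labels do not say what the number shares. Leaving out young pool 3 gave 8 calls in macrophage-like cells: mt-Atp6, mt-Atp8, mt-Co3, mt-Nd1, mt-Nd2, mt-Nd3, mt-Nd6 and Cox7a2l, all higher. The same omission gave 1 call in classical monocyte-like cells, mt-Co3. Shares of all genes called with DESeq2, the block or a pool left out are not given here, so these counts lack a background. In the test between classes, reported last, leaving out young pool 3 gave 51 calls among 9047 genes, against 2 among 8535 with all pools. None of the 51 was a member.

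Nuclear members had log2 ratios mostly a little below 0, and none passed in any class with edgeR. Adjusted calls made up 0.133% of all genes in cDC2-like, 0.187% in classical monocyte-like, 0.249% in neutrophil-like and 0.0241% in stroma-like cells. The median nuclear log2 ratio was -0.14 over 74 members in all kept cells, -0.09 over 73 in macrophage-like, -0.17 over 68 in NK cell-like, -0.18 over 70 in cDC2-like and -0.16 over 68 in non-classical monocyte-like cells. In stroma-like cells it was -0.02 over 71, and in neutrophil-like cells -0.04 over 45. The members absent from each fit had too few counts. At an unadjusted p under 0.05 NK cell-like cells had 7 mitochondrially encoded and 8 nuclear members, against 11.1% of all genes. In NK cell-like cells 21 of 68 were lower at 15 months without overlap, against 8.75% of all genes. There were 18 of 74 in all kept cells, against 11.6%, and 6 of 73 in macrophage-like cells, against 10.4%, a share near the background. The 8 members at an unadjusted p under 0.05 in NK cell-like cells, against 4.84% of all genes that were lower at that level, were Cox5b, Ndufa8, Ndufb11, Ndufa4, Ndufs4, Ndufb9, Ndufs8 and Ndufb8, all with log2 ratios below 0.

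By complex, the median nuclear log2 ratio in macrophage-like cells was -0.07 for complex I (35 tested), -0.07 for complex III (8), -0.09 for complex IV (14) and -0.12 for ATP synthase (16). Among members of at least 50 CPM, the most negative were Atp5g1, at 538, 541 and 409 CPM in the 3-month pools and 337, 393 and 424 CPM in the 15-month pools (log2 ratio -0.36 ± 0.17 (SE), adjusted p 0.385), then Ndufs4 (-0.31), an accessory subunit needed to complete complex I, Cox7b (-0.30), Cox5b (-0.29) and Atp5f1 (-0.29), the peripheral stalk subunit b. The 3-month pools of Atp5g1 overlapped the old ones. The most positive of these was Cox7a2l, at 193, 202 and 303 CPM in the 3-month pools and 301, 315 and 346 CPM in the 15-month pools (log2 ratio 0.46 ± 0.19 (SE), adjusted p 0.360), with overlap through young pool 3. Ndufa9, a complex I subunit near the quinone site, was at 50.6, 64.6 and 53.0 CPM in the 3-month pools and 65.5, 65.8 and 75.5 CPM in the 15-month pools. All old pools lay above the young ones for Ndufa9 (log2 ratio 0.30 ± 0.15 (SE), adjusted p = 0.427). Ndufv3, Ndufa5 and Ndufc2 followed at 0.13, 0.12 and 0.11.

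The most abundant nuclear members showed small ratios in macrophage-like cells. These were Ndufa13 (-0.04), Ndufa7 (-0.28) and Ndufa2 (-0.03) in complex I, Uqcrh (0.01), Uqcrq (-0.10) and Uqcrb (-0.12) in complex III, Cox8a (-0.12), Cox7c (-0.13) and Cox6c (-0.01) in complex IV and Atp5e (-0.25), Atp5l (-0.02) and Atp5h (-0.10) in ATP synthase, and none passed the test. In all kept cells the lowest were Ndufs4 at -0.37 ± 0.12 (SE), Atp5g1 at -0.32 ± 0.15 (SE) and Cox5b at -0.32 ± 0.13 (SE), followed by Atp5f1 (-0.29) and Cox7b (-0.28). Ndufs4 was at 147, 139 and 122 CPM in the 3-month pools and 96.0, 114 and 105 CPM in the 15-month pools, with every old pool below every young one (adjusted p 0.218). Cox5b was at 518, 549 and 460.4 CPM in the 3-month pools and 361, 449.9 and 415 CPM in the 15-month pools, also without overlap (adjusted p 0.268). The highest were Cox7a2l (0.25) and Ndufa9 (0.16), with Ndufv1 and Ndufa5 at 0.02 and 0.02.

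**Figure D4:**
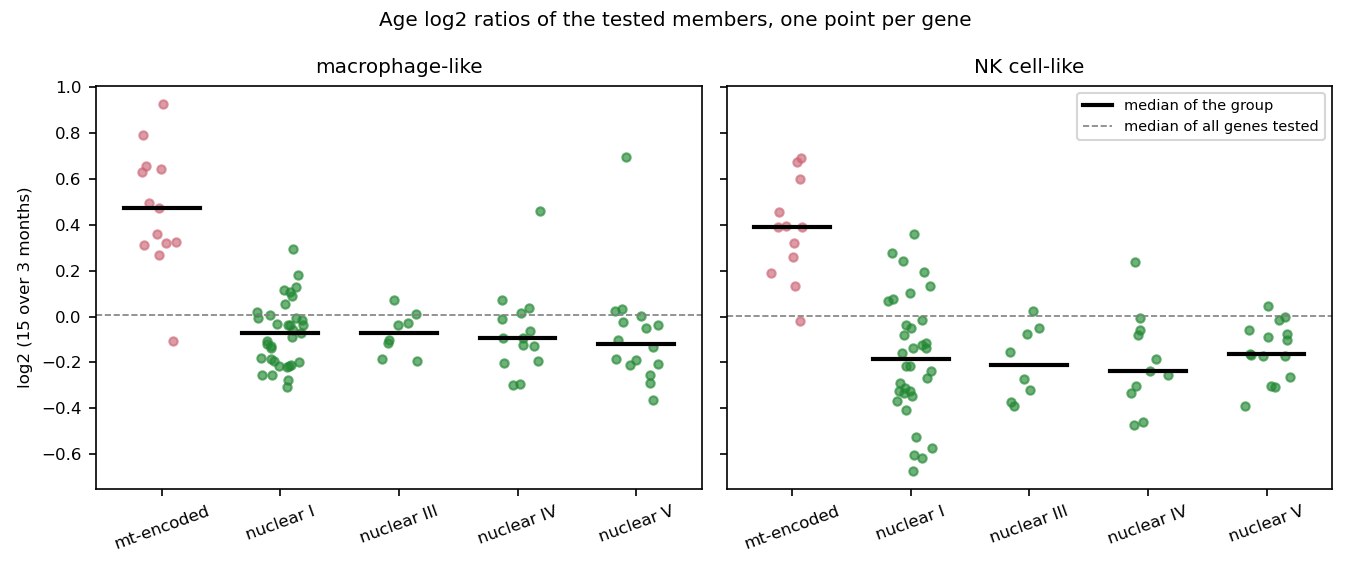
Age log2 ratio of 15 over 3 months (vertical axis, edgeR) in macrophage-like (left) and NK cell-like cells (right), with 1 point per tested member, by encoding genome and complex. Bars are group medians and the dashed line is the median of all genes tested. In macrophage-like cells the mitochondrially encoded median is 0.47 and the nuclear median -0.09.

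The rest of the pathway was read from lists outside the members, and in macrophage-like cells no gene of any list passed. Of 10 tested genes for complex II, cytochrome c and other parts of the chain, the median log2 ratio was -0.06. Cycs, cytochrome c, was at -0.76 ± 0.29 (SE), Ndufab1, the acyl carrier protein of complex I, at -0.42 ± 0.14 (SE) and Sdha of complex II at 0.22 ± 0.16 (SE). Of the 43 assembly factors 10 were lower and 1 higher without overlap, with a median of -0.08, and Ndufaf4, a complex I assembly factor, was at -0.83 ± 0.19 (SE). The 21 genes of mitochondrial DNA expression had a median of -0.15, with Top1mt, a mitochondrial topoisomerase, at -0.95 ± 0.40 (SE) and Fastkd2 at -0.78 ± 0.22 (SE). The 11 regulators of mitochondrial biogenesis had a median of 0.05, with Ppargc1b at 0.84 ± 0.42 (SE). For the 77 mitochondrial ribosomal proteins, which make the mitochondrially encoded subunits, the median was -0.24, and 26 were lower and 1 higher without overlap, against 10.4% and 10.1% of all genes. The 89 tested genes of the list of cytosolic ribosomal proteins had a median of -0.17, with 34 lower and 2 higher.

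Carbon metabolism genes showed no call either. The 17 TCA cycle genes had a median log2 ratio of -0.05 in macrophage-like cells, with Idh3g at 0.64 ± 0.18 (SE) and Idh3a, another subunit of the same enzyme, at -0.45 ± 0.20 (SE). The 16 glycolysis genes had a median of -0.28, with the hexokinases Hk1 and Hk2 at 0.76 ± 0.22 (SE) and 0.55 ± 0.18 (SE) and Eno1 at -0.75 ± 0.25 (SE). All of these had an adjusted p of at least 0.319. RNAs that mark nuclear RNA or tissue handling gave no call in macrophage-like cells either. Neat1, a long RNA kept in the nucleus, was at 0.87 ± 0.13 (SE) on the same log2 scale (adjusted p = 0.0874), and 7 of 15 immediate early and dissociation genes were lower without overlap, against 10.4% of all genes, with a median of -0.39. The part of these in the age difference of the members was not tested.

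Whether the age ratio of a member differed between classes was tested in 1 model over the 7 classes with the pool as a block. Of the 84 members tested, none passed an adjusted p of 0.05 for all class terms together, as 0.0234% of all genes did. The smallest adjusted p was 0.464, for Atp5d, the delta subunit of ATP synthase. At an unadjusted p under 0.05 there were 6 members, all nuclear (Atp5d, Ndufv3, Cox7a2, Atp5c1, Cox5b and Atp5h), against 8% of all genes. Against macrophage-like cells none of the other 6 classes gave a call among the members, while calls over all genes ran from 0% (classical monocyte-like and NK cell-like) and 0.0117% (cDC2-like and non-classical monocyte-like) to 0.117% (neutrophil-like) and 0.141% (stroma-like). Neutrophil-like cells had 16 nuclear members at an unadjusted p under 0.05, of 84 tested, against 12.5% of all genes, with a smallest adjusted p of 0.184. The call of mt-Co3 in non-classical monocyte-like cells was thus not shown to differ from the other classes.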

How the data were processed

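Gene UMI counts and hashtag counts were deposited by the authors as 1 matrix per library. Cell Ranger 4.0.0 is named per the file headers, and Cell Ranger 7.0.0, FastQC 0.11.4 and mm10 per the submitters' processing notes; which version made the matrices is not given in the sources used here. Hashtags were called with HTODemux (Seurat 5.3.0, quantile 0.99). Kept singlets were clustered in scanpy 1.11.5 (Leiden, leidenalg 0.10.2, 2000 variable genes, 30 components, 15 neighbours, resolution 0.6). Counts were summed per pool and class and tested with edgeR 4.0.16 (R 4.3.3; filterByExpr, TMM, quasi-likelihood, Benjamini-Hochberg, threshold 0.05) where all 6 pools held at least 10 cells. The method was tested on simulated data. The planted changes were larger than the age ratio of any tested member, so smaller changes were not tried. Pools are the replicates. Doublets within a pool were kept. Depth per library was 15110425 and 35520145 kept UMIs, and floors of 3 counts cover counting error only. Members and gene lists were chosen with earlier results of these data known.

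Named genes were the mitochondrially encoded members, the 3 nuclear members highest in each complex, every call, up to 5 nuclear members with the largest rise and fall in macrophage-like and in all kept cells, up to 10 with the widest range over classes, the restricted isoforms, and up to 3 genes of each other list with the smallest p in macrophage-like cells. Alternatives covered DESeq2 1.42.0, library size without mitochondrial genes, filters, mitochondrial limits of 5% and 20%, a hashtag ratio rule, haemoglobin-rich barcodes left out, Leiden resolutions of 0.3 and 1, clustering with the members, single macrophage clusters, a pool-number block and each pool left out. Hashtag doublets and negatives entered no comparison.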

Additional observations from a re-analysis of the deposited data

How the results depend on the processing

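Counts of members past the threshold, 0 in every class but non-classical monocyte-like cells, differed in these settings by over 1.5 times. In all kept cells DESeq2 called 5 members, not 0. In NK cell-like cells 1 member (mt-Co3) was called, not 0, by DESeq2, with the hashtag ratio rule, with members among the clustering genes, at up to 20% mt- UMIs and at resolution 1. In classical monocyte-like cells 2 were called with members among the clustering genes, 5 at up to 20% mt- UMIs and 2 without a filter on low counts. In macrophage-like cells 1 (mt-Nd6) was called without that filter. With a pool left out the counts ran from 0 to 1 in classical monocyte-like, 0 to 8 in macrophage-like and 0 to 1 in non-classical monocyte-like cells. The call of mt-Co3 was lost without 3-month pool 1 or 2 or 15-month pool 3 (log2 0.56, 0.47 and 0.45, against 0.56). The cause was not tested, and the share of all genes called in each of these settings is not given here.

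The pool numbers are hashtag labels. Same-numbered pools correlated at 0.07, -0.01 and 0.22 in all kept cells and at -0.03, 0.01 and 0.22 in macrophage-like cells, where not every pair was over 0.1. In NK cell-like cells they correlated at 0.19, 0.14 and 0.20 and in classical monocyte-like cells at 0.19, 0.12 and 0.17, a hint of pairing from the data, not the design. Pools of different number ran from -0.18 to -0.01 and from -0.16 to 0.04 in these 2 classes. The values of a pool are not independent of each other, so this range adds no separate support. With a replicate block for the number, 5 members were called in NK cell-like cells, not 0 (mt-Atp6, mt-Co3, mt-Nd1 and mt-Nd3 higher, Ndufa4 lower), and the counts of the other 6 classes and of all kept cells were unchanged.

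The age difference in the log2 ratio of the sums stayed within the spread of the pools in 90 of 95 alternatives. In NK cell-like cells it was 0.35 at up to 20% mt- UMIs and 0.37 at resolution 1, against 0.59. In macrophage-like cells it was 0.22 with the hashtag ratio rule, 0.13 with members among the clustering genes and 0.24 at resolution 1, against 0.56. Single macrophage-like clusters are not among the 95. The difference was 0.14 in cluster 0, 0.74 in cluster 6 and 0.23 in cluster 7.

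Levels against macrophage-like cells moved mostly with members among the clustering genes. The mitochondrially encoded log2 ratio then was -0.50 in NK cell-like, -0.71 in cDC2-like, -0.91 in classical monocyte-like and -0.77 in non-classical monocyte-like cells, and the nuclear one 0.20, 0.13, 0.16 and -0.089, with -0.89 in neutrophil-like cells. At up to 20% mt- UMIs the mitochondrially encoded ratio was -0.35 in NK cell-like and -0.67 in classical monocyte-like cells. At resolution 1 it was -0.52 and -0.72, and the nuclear ratio was 0.16 in classical monocyte-like and -0.91 in neutrophil-like cells. As a share of UMIs neither mitochondrial nor cytosolic ribosomal, the nuclear ratio was 0.068 in cDC2-like and -1.30 in neutrophil-like cells.

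Single genes changed sign as follows, none past the threshold in either form. In macrophage-like cells mt-Nd4l was 0.24 in cluster 6 alone and ran from -0.32 to 0.23 with a pool left out. Atp5g1 was 0.015 in cluster 0, 0.096 in cluster 7 and 0.11 with members clustered, and Cox7b was 0.031, 0.10 and 0.079 in the same settings. Ndufs4 was 0.024 with members clustered and Cox5b 0.051 in cluster 7. Ndufv3 ran from -0.033 to 0.25 with a pool left out, and Ndufa5 -0.0088 with the hashtag ratio rule. Ndufc2 was -0.084 in cluster 7 and -0.00064 at resolution 1. In all kept cells Ndufv1 was -0.018 with the ratio rule and ran from -0.031 to 0.1 with a pool left out. Ndufa5 was -0.0093 with the ratio rule and ran from -0.048 to 0.069. mt-Co3 in neutrophil-like cells was -0.057 at up to 5% mt- UMIs and -0.031 without the highest scrublet scores. Leaving out scrublet's own calls was not run, since it called 2 of 8074 barcodes, and the 6% of highest scores were left out instead, chosen after seeing the data, as were the single-cluster settings. Shallow classes limit the tests: 45 nuclear members were tested in neutrophil-like and 73 in macrophage-like cells.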

Other observations

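Smaller clusters, with too few cells in at least 1 pool for the test, gave values of their own. Of the 6 pools, only 2 held at least 10 endothelial-like cells. The same number of cells was reached in 4 pools for cluster 10 and in 4 for cycling cell-like cells. In endothelial-like cells (21 cells at 3 months and 35 at 15) the nuclear members took 2.88, 2.49 and 2.67% of UMIs in the 3-month pools and 1.97, 2.13 and 2.14% in the 15-month pools, lower at 15 months without overlap, while their mitochondrially encoded share overlapped. Cluster 10, which carried both type 1 dendritic cell markers (Xcr1, Clec9a) and haemoglobin genes among its leading genes and so stayed unnamed, had nuclear shares of 1.76, 2.12 and 1.68% and then 2.39, 2.34 and 2.21%, higher at 15 months. Haemoglobin genes took 5.03 to 12.6% of its UMIs in the 3-month pools and 0.003 to 0.382% in the 15-month pools, and their part in that difference was not tested. Cycling cell-like cells had mitochondrially encoded shares of 2.03 ± 0.292% and 2.74 ± 0.168% (SD, n = 3 pools), without overlap, from 31 and 104 cells.

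Barcodes outside the kept cells had mt- shares that differed by hashtag call. Among barcodes with at least 500 genes and 1000 UMIs, those with no hashtag had a median of 3.78% mt- UMIs at 3 months (66 barcodes) and 4.27% at 15 months (256), and 4.55% and 16.4% of them exceeded 10%. Singlets had medians of 1.90% (1866) and 2.43% (3971), and 1.55% and 3.48% of them exceeded 10%. Barcodes with more than 1 hashtag had medians of 1.96% (337) and 3.04% (310). The mt- share was higher in the 15-month library in all 3 kinds of barcode, and with 1 library per age this comparison has no replicate.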
